A study of Arabidopsis thaliana with 12 samples.

Results

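Of the 28642 genes listed for each library, 22 stood higher in the sapx tapx pgr5 triple mutant of Arabidopsis thaliana than in wild type, while neither sapx tapx nor pgr5 stood far above wild type. They were chosen by a rule on levels in CPM, the exon reads of a gene per 1000000 exon reads of its library. The triple mutant's mean had to be 5 CPM or more and, with 0.5 added to each mean, at least 2.5 times the mean of each other genotype. The pgr5 and sapx tapx means had to stay under 1.5 times wild type, and the lowest triple mutant library had to lie above the highest of the other 9 libraries. Because these values chose the genes, their levels and ratios are given as a description and no test is attached to them. Of all genes, 12878 met the level, 109 met the ratio and 512 met the condition on single libraries, and the 22 met all conditions.

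RNA was sequenced from fully expanded rosette leaves of the sapx tapx pgr5 triple mutant, the sapx tapx double mutant, the pgr5 single mutant and wild type, with 3 libraries of each. Plants had spent 18 days in dim light (40 to 60 µmol photons/m2/s) and were then placed for 90 min in strong light (1500 µmol photons/m2/s). All 12 libraries come from exposed plants, so every comparison is between genotypes after the exposure. SAPX and TAPX are the ascorbate peroxidases of the chloroplast stroma and thylakoids, where they remove hydrogen peroxide, and PGR5 is a thylakoid protein required for cyclic electron transport at photosystem I. The labels name the genotypes without the alleles, and they do not say whether plants were pooled.

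Plants remove toxic foreign and self-made compounds in steps. Cytochromes P450 and reductases change the reactive group, glutathione transferases, glycosyltransferases and sulfotransferases attach a soluble group, and transporters move the product into the vacuole or out of the cell. Lipid peroxides formed in strong light break down to reactive carbonyls, which aldo-keto reductases and related enzymes reduce to less reactive alcohols. TGA transcription factors bind promoter sites around TGACG, WRKY factors bind sites around TTGAC, and heat shock factors bind repeated units with GAA and TTC.

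The libraries held 4916603 to 6828070 exon reads, so that 3 reads correspond to 0.439 to 0.610 CPM. SAPX averaged 20.2 ± 6.56 CPM in the triple mutant, 20.1 ± 4.30 in sapx tapx, 243 ± 6.30 in pgr5 and 221 ± 23.9 in wild type (SD, n = 3 each). TAPX averaged 25.4 ± 1.49 CPM in the triple mutant, 18.0 ± 0.609 in sapx tapx, 202 ± 10.8 in pgr5 and 176 ± 12.8 in wild type. Within genotypes, some libraries stood apart in a list of 22 rapid stress transcription factors and touch genes. Replicates 1, 2 and 3 of the triple mutant had a mean log2(CPM + 0.5) over the list of 4.70, 3.01 and 4.67, and those of sapx tapx had 5.12, 3.45 and 4.73. In pgr5 it was 3.73, 4.10 and 3.30, and in wild type it was 1.98, 4.63 and 2.04. Replicate 2 was therefore low in the triple mutant and in sapx tapx, and high in wild type. With these 3 libraries left out together, the rule found 27 genes, of which 14 are among the 22 described here.

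The rule leaned on values near its limits for a few genes. Just inside the ratio of 2.5 were AT4G15420 at 2.55, WRKY25 at 2.56 and ATERDJ3A at 2.61 times the highest other genotype. Just outside, with every other condition met, were OPR1 at 2.41, GolS1 at 2.39 and GSTF8 at 2.37 times. The ratio to the highest other genotype had a median of 3.20 over the 22 genes and reached 11.985 in GSTU24. The mean of pgr5 was 0.664 to 1.49 times that of wild type and lay above it in 12 of 22 genes, and the mean of sapx tapx was 0.660 to 1.39 times that of wild type and lay above it in 13.

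**Figure D1:**
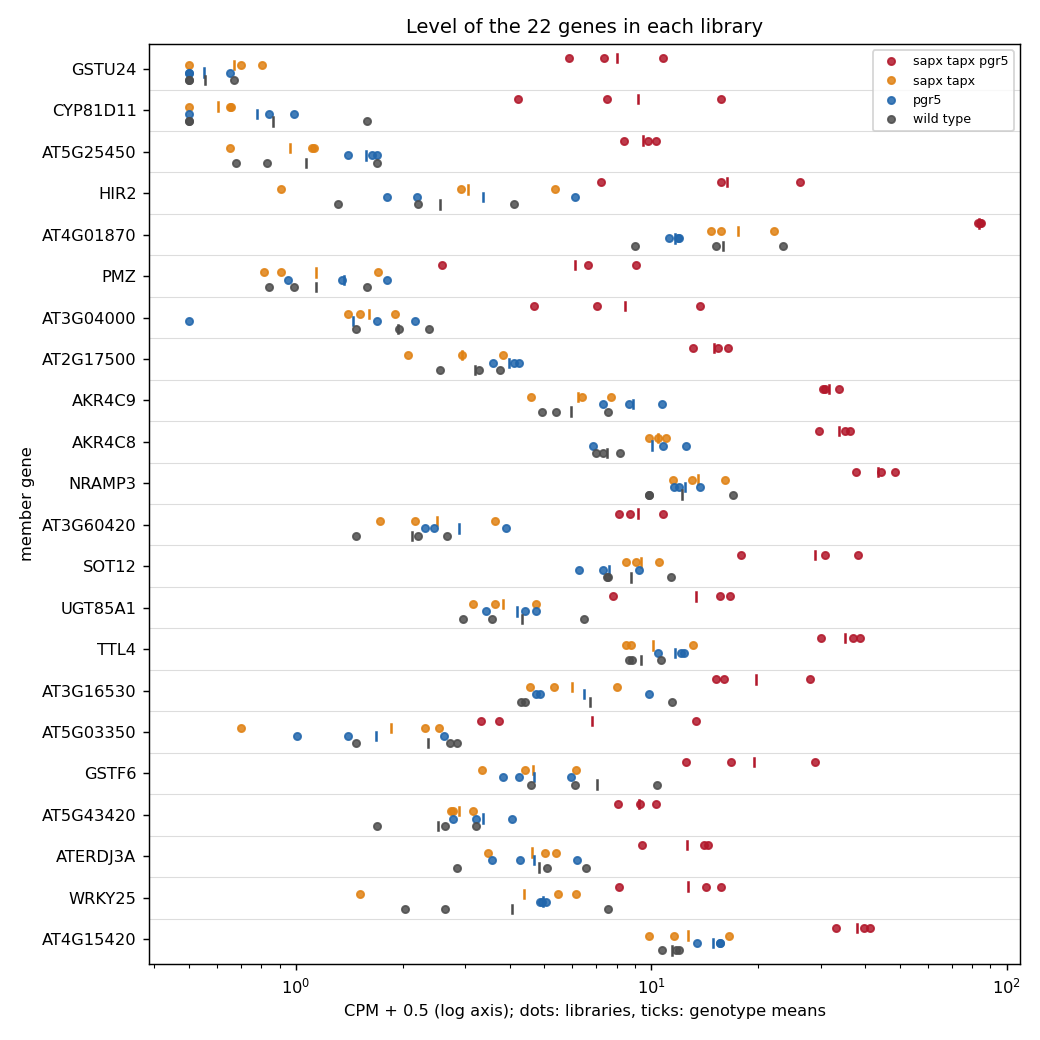
Level of each of the 22 genes in CPM + 0.5 on a log axis, with a dot for each library and a tick for each genotype mean (n = 3). By the rule every triple mutant dot lies right of the other 9, by a wide gap in AT4G01870 and a narrow gap in WRKY25.

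Promoter windows of 300 bases, from 250 before to 50 after the annotated start, are shown for 6 genes, all of which hold a motif marked below. PMZ, NRAMP3, AT3G60420 and TTL4, which are not shown, hold none of the marked motifs. Capitals mark the TGA core TGACG, the W box core (named above as the site of WRKY factors) and the heat shock unit GAANNTTC, each on either strand, so that a run in capitals may be the reverse complement. The sequences are from the RefSeq genome TAIR10.1, written 5′ to 3′ on the strand of the gene. The first is AT4G01870 (chr4:810397-810696, minus strand), the gene with the highest level, with TTGAC 238, 64 and 56 bases and TGACG 119 bases before the start.
AT4G01870: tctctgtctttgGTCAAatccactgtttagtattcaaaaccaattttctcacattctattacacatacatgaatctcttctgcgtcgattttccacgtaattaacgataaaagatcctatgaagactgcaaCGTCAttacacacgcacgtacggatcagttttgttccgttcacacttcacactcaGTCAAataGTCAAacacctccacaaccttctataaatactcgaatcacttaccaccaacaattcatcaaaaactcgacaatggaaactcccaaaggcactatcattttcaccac
AT5G25450 (chr5:8856747-8857046, plus strand) holds TTGAC 194, 172 and 164 bases before the start, the last of them overlapping TGACG at 163.
AT5G25450: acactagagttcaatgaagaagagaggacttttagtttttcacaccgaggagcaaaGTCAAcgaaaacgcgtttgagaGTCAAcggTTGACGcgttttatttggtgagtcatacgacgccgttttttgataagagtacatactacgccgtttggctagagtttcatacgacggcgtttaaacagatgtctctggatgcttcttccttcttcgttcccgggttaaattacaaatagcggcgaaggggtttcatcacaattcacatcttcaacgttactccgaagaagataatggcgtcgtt
CYP81D11 (chr3:10790504-10790803, minus strand) holds TGACG 231 bases before the start.
CYP81D11: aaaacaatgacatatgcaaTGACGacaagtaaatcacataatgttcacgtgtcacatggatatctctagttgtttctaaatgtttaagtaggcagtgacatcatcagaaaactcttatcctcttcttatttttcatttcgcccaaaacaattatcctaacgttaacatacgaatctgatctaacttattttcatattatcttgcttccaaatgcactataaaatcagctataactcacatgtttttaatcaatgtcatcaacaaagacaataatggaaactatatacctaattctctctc
AKR4C9 (chr2:15834617-15834916, plus strand) holds TGACG 140 bases before the start.
AKR4C9: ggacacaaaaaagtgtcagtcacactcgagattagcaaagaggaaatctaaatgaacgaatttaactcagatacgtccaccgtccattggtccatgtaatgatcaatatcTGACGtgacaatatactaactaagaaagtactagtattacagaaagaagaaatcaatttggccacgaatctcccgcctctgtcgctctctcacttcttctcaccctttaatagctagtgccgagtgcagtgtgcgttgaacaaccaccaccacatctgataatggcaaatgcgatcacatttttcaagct
HIR2 (chr3:89373-89672, minus strand) holds GAANNTTC 163 and 97 bases and TTGAC 138 and 62 bases before the start.
HIR2: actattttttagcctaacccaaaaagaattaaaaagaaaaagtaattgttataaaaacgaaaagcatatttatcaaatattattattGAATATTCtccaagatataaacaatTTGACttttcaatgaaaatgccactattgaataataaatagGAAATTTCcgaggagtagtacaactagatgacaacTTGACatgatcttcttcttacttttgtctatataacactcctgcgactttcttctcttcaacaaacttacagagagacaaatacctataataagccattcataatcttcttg
ATERDJ3A (chr3:2737287-2737586, plus strand) holds GAANNTTC 118 and 8 bases before the start, and TTGAC 197 bases before it and 2 bases after it.
ATERDJ3A: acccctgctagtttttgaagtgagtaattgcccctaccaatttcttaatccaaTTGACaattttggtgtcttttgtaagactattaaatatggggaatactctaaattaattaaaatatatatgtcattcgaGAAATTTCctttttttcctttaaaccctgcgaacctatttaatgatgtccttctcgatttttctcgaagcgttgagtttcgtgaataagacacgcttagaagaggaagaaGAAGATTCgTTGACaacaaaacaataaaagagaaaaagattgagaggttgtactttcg

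The cytochrome P450 and the transferases that attach a soluble group made up 5 of the 22 genes. GSTU24 (AT1G17170, chromosome 1, 5869846 to 5870840, plus strand), a tau class glutathione transferase, had 10.3, 5.36 and 6.88 CPM in the 3 triple mutant libraries, given here and below in the order of replicates 1, 2 and 3. In sapx tapx it had 0, 0.203 and 0.302 CPM, in pgr5 0, 0.151 and 0, and in wild type 0.170, 0 and 0. The groups held 143 reads in the triple mutant, 3 in sapx tapx, 1 in pgr5 and 1 in wild type, so the gene was near its detection limit in all but the triple mutant. The ratio of reads per depth was 44.1 to sapx tapx (95% counting interval 14.8 to 217), 138 to pgr5 (24.3 to 5478) and 129 to wild type (22.8 to 5142). CYP81D11 (AT3G28740, chromosome 3, 10788698 to 10790553, minus strand), a cytochrome P450 known to be induced by xenobiotics through TGA factors, had 15.3, 3.72 and 7.03 CPM in the triple mutant. It had 0.156, 0 and 0.151 CPM in sapx tapx, 0.340, 0 and 0.488 in pgr5, and 0, 1.08 and 0 in wild type. Its 6 wild type reads all came from replicate 2, and triple mutant replicate 1 was 4 times as high as replicate 2.

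GSTF6 (AT1G02930, chromosome 1, 661177 to 662456, minus strand), a phi class glutathione transferase known from defence responses, had 28.5, 12.1 and 16.3 CPM in the triple mutant. It had 5.63, 2.85 and 3.92 CPM in sapx tapx, 5.44, 3.32 and 3.74 in pgr5, and 9.88, 5.60 and 4.09 in wild type. Its lowest triple mutant library lay only a little above the highest wild type library, and both parent genotypes averaged below wild type, at 0.660 times for sapx tapx and 0.664 times for pgr5. UGT85A1 (AT1G22400, chromosome 1, 7903660 to 7906673, minus strand), a glycosyltransferase that acts on cytokinins, had 15.1, 7.30 and 16.1 CPM in the triple mutant, against 3.13, 2.64 and 4.23 in sapx tapx, 3.91, 4.22 and 2.93 in pgr5, and 3.07, 5.96 and 2.45 in wild type. SOT12 (AT2G03760, chromosome 2, 1149337 to 1150663, minus strand), a sulfotransferase with activity on brassinosteroids and salicylic acid, had 37.5, 17.42 and 30.3 CPM in the triple mutant. It had 10.006, 8.54 and 7.9997 CPM in sapx tapx, 5.78, 8.75 and 6.83 in pgr5, and 6.98, 10.8 and 7.03 in wild type. All 5 of these genes except GSTU24 were at least 2-fold lower in triple mutant replicate 2 than in the highest triple mutant library.

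Oxidoreductases gave 3 genes, of which the aldo-keto reductases were even among the triple mutant libraries. AKR4C9 (AT2G37770, chromosome 2, 15834867 to 15837001, plus strand), a chloroplast aldo-keto reductase that reduces reactive aldehydes, had 30.3, 33.2 and 29.9 CPM in the triple mutant. It had 7.19, 5.90 and 4.08 CPM in sapx tapx, 10.2, 8.15 and 6.83 in pgr5, and 4.43, 7.05 and 4.91 in wild type. Its mean in pgr5 was 1.49 times that in wild type, just under the limit of the rule, and the gene left the set under another depth scaling. AKR4C8 (AT2G37760, chromosome 2, 15831854 to 15833920, plus strand), the neighbouring aldo-keto reductase 946 bases away, had 34.6, 35.7 and 29.1 CPM in the triple mutant. It had 10.5, 9.97 and 9.36 CPM in sapx tapx, 12.1, 10.3 and 6.34 in pgr5, and 6.81, 6.50 and 7.69 in wild type. The pair thus stood at nearly the same level, and the triple mutant was 5.31 and 4.49 times wild type for AKR4C9 and AKR4C8. AT3G04000 (chromosome 3, 1035500 to 1036672, plus strand), annotated as a NAD(P)-binding Rossmann-fold protein, had 6.52, 4.17 and 13.2 CPM in the triple mutant, against 1.41, 1.02 and 0.906 in sapx tapx, 1.19, 1.66 and 0 in pgr5, and 1.87, 1.45 and 0.981 in wild type. Its triple mutant libraries spread more than those of the aldo-keto reductases.

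AT4G01870 (chromosome 4, 808376 to 810446, minus strand), annotated as tolB-like, had the highest level of the set and the smallest spread in the triple mutant. It had 82.3, 83.7 and 83.9 CPM there, 14.2, 15.3 and 21.6 in sapx tapx, 10.7, 11.5 and 11.4 in pgr5, and 8.52, 22.9 and 14.7 in wild type. Per exon length this was 39.7 ± 0.37 RPKM in the triple mutant and 7.33 ± 3.4 RPKM in wild type (SD, n = 3 each), and the coefficient of variation of its CPM was 1.05% in the triple mutant. It varied more in wild type, and it left the set when the 3 libraries that stood apart in the rapid stress list were left out together. AT5G25450 (chromosome 5, 8856997 to 8858476, plus strand), annotated as a cytochrome bd ubiquinol oxidase 14 kDa subunit, had 9.26, 7.89 and 9.81 CPM in the triple mutant, against 0.625, 0.610 and 0.151 in sapx tapx, 1.19, 0.905 and 1.14 in pgr5, and 1.19, 0.181 and 0.327 in wild type. In this gene too the 3 triple mutant libraries lay close together. The groups held 174 reads in the triple mutant, 8 in sapx tapx, 20 in pgr5 and 10 in wild type. On these few reads its mean in pgr5 was 1.48 times that in wild type, just under the limit of the rule. AT3G60420 (chromosome 3, 22334424 to 22337617, plus strand), a protein of the phosphoglycerate mutase family, had 10.3, 8.19 and 7.62 CPM in the triple mutant, against 3.13, 1.22 and 1.66 in sapx tapx, 3.40, 1.81 and 1.95 in pgr5, and 1.70, 2.17 and 0.981 in wild type.

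Membrane proteins gave 3 genes. NRAMP3 (AT2G23150, chromosome 2, 9856192 to 9858574, minus strand), which exports iron and manganese from the vacuole, had 48.0, 43.8 and 37.1 CPM in the triple mutant. It had 12.5, 15.66 and 11.0 CPM in sapx tapx, 13.3, 11.5 and 11.1 in pgr5, and 9.37, 16.4 and 9.32 in wild type. AT2G17500 (chromosome 2, 7606757 to 7609278, plus strand), a PIN-LIKES protein that controls auxin at the endoplasmic reticulum, had 15.9, 14.9 and 12.6 CPM in the triple mutant. It had 1.56, 2.44 and 3.32 CPM in sapx tapx, 3.74, 3.62 and 3.09 in pgr5, and 2.04, 3.25 and 2.78 in wild type. Both genes had triple mutant libraries less than 1.5-fold apart. HIR2 (AT3G01290, chromosome 3, 88054 to 89422, minus strand), a membrane protein of the hypersensitive induced reaction family that assembles with immune receptors, had 25.7, 6.70 and 15.2 CPM in the triple mutant. It had 4.85, 0.407 and 2.42 CPM in sapx tapx, 1.70, 5.58 and 1.301 in pgr5, and 1.70, 3.61 and 0.818 in wild type. In HIR2 the low library of the triple mutant and of sapx tapx was replicate 2 and the high library of pgr5 and of wild type was replicate 2, the same order as in the rapid stress list.

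Protein folding and ubiquitin functions gave 5 genes. TTL4 (AT3G58620, chromosome 3, 21680326 to 21683135, plus strand), a tetratricopeptide protein with a thioredoxin-like domain, had 36.4, 38.1 and 29.6 CPM in the triple mutant, against 8.29, 12.6 and 7.9997 in sapx tapx, 11.9, 11.6 and 9.92 in pgr5, and 8.35, 10.12 and 8.18 in wild type. AT4G15420 (chromosome 4, 8823725 to 8826096, plus strand), a protein of the UFD1 family whose members help extract ubiquitinated proteins, had 39.1, 32.6 and 40.7 CPM in the triple mutant, against 11.1, 16.1 and 9.36 in sapx tapx, 12.9, 15.1 and 15.1 in pgr5, and 10.2, 11.2 and 11.4 in wild type. Both were even among the triple mutant libraries. ATERDJ3A (AT3G08970, chromosome 3, 2737537 to 2740530, plus strand), a J-domain co-chaperone of the endoplasmic reticulum needed for pollen tube growth in heat, had 8.92, 13.6 and 13.9 CPM in the triple mutant. It had 2.97, 4.88 and 4.53 CPM in sapx tapx, 3.06, 3.77 and 5.69 in pgr5, and 4.60, 2.35 and 6.05 in wild type. AT5G43420 (chromosome 5, 17451669 to 17453124, plus strand), a RING/U-box protein of a family of ubiquitin ligases, had 7.54, 8.79 and 9.81 CPM in the triple mutant, against 2.66, 2.24 and 2.26 in sapx tapx, 3.57, 2.72 and 2.28 in pgr5, and 1.19, 2.71 and 2.13 in wild type. PMZ (AT3G28210, chromosome 3, 10520509 to 10521532, plus strand), a zinc finger protein of the stress-associated protein family, had 8.57, 2.08 and 6.15 CPM in the triple mutant. It had 0.313, 0.407 and 1.21 CPM in sapx tapx, 0.849, 0.453 and 1.301 in pgr5, and 0.341, 1.08 and 0.491 in wild type. Unlike TTL4 and AT4G15420, PMZ differed 4-fold among the triple mutant libraries, with replicate 2 lowest. Its reads numbered 106 in the triple mutant, 12 in sapx tapx, 16 in pgr5 and 11 in wild type.

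The last 3 genes were WRKY25 and a pair of lectins. WRKY25 (AT2G30250, chromosome 2, 12903236 to 12905198, minus strand), a transcription factor with roles in heat and salt tolerance and in defence, had 13.7, 7.60 and 15.2 CPM in the triple mutant. It had 5.63, 1.02 and 4.98 CPM in sapx tapx, 4.42, 4.38 and 4.55 in pgr5, and 1.53, 7.05 and 2.13 in wild type. WRKY25 is itself in the rapid stress list, and wild type replicate 2 came within 1.08 times of triple mutant replicate 2. AT3G16530 (chromosome 3, 5624377 to 5625470, minus strand), a legume lectin family protein, had 27.4, 14.7 and 15.5 CPM in the triple mutant, against 7.50, 4.07 and 4.83 in sapx tapx, 9.34, 4.38 and 4.23 in pgr5, and 10.9, 3.79 and 3.93 in wild type. AT5G03350 (chromosome 5, 815674 to 816658, minus strand), another legume lectin family protein, had 12.9, 2.83 and 3.22 CPM in the triple mutant. It had 2.03, 0.203 and 1.81 CPM in sapx tapx, 0.510, 0.905 and 2.11 in pgr5, and 2.21, 2.35 and 0.981 in wild type. Its coefficient of variation in the triple mutant, 90.12%, was the highest of the set, and replicate 1 alone carried most of its mean.

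**Figure D2:**
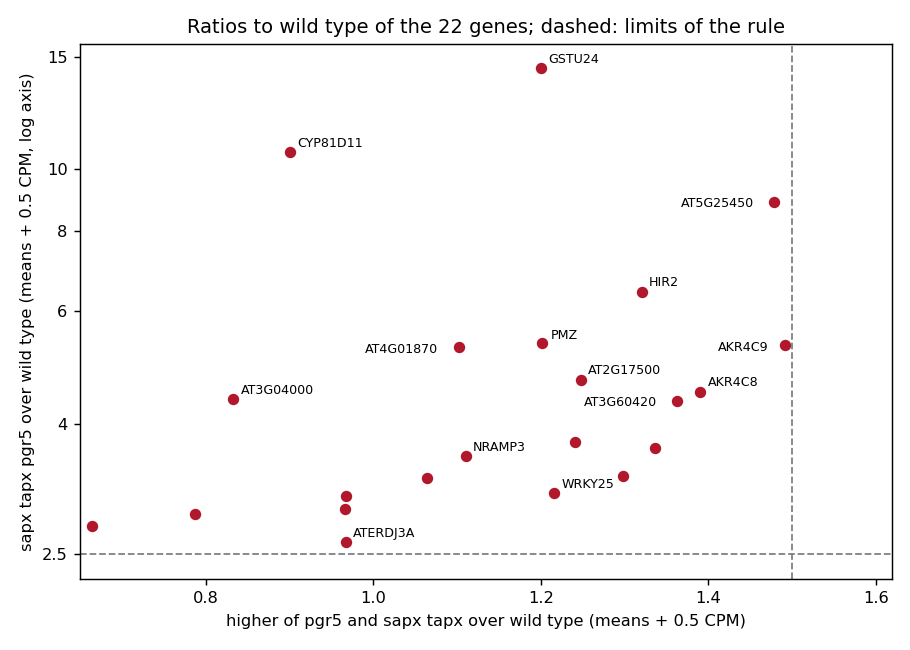
Each of the 22 genes by the triple mutant mean over the wild type mean (vertical, log axis) and by the higher of the pgr5 and sapx tapx means over the wild type mean (horizontal), all with 0.5 CPM added (n = 3 libraries a genotype). The dashed lines are limits of the rule, and AKR4C9 and AT5G25450 lie next to the limit of 1.5.

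Among themselves, the 22 genes fell into those that were even and those that were uneven across the triple mutant libraries. In 9 genes the highest triple mutant library was at least 2-fold above the lowest, and in all 9 the lowest was replicate 2. These were CYP81D11, HIR2, PMZ, AT3G04000, SOT12, UGT85A1, AT5G03350, GSTF6 and WRKY25. Their mean log2(CPM + 0.5) was 4.04, 2.67 and 3.59 in the triple mutant, 1.59, 0.67 and 1.48 in sapx tapx, 1.305, 1.42 and 1.24 in pgr5, and 1.302, 1.95 and 0.95 in wild type. Replicate 2 was thus the lowest library of the triple mutant and of sapx tapx and the highest of pgr5 and of wild type, as in the rapid stress list, which shares WRKY25 with these genes. The other 13 genes averaged 4.45, 4.31 and 4.30 in the triple mutant, 2.25, 2.30 and 2.17 in sapx tapx, 2.51, 2.34 and 2.25 in pgr5, and 2.12, 2.18 and 2.05 in wild type. For these 13 genes the lowest triple mutant value, 4.30, lay above the highest value in another genotype, 2.51, as the rule requires of each gene. In this mean the replicates of a genotype lay close together, but single genes could differ. In wild type, AT4G01870 had 8.52, 22.9 and 14.7 CPM and AT3G16530 had 10.9, 3.79 and 3.93. Of the 13, AKR4C9, AT3G16530, AT3G60420, AT5G43420 and ATERDJ3A left the set without wild type replicate 2. Because the split used the triple mutant libraries, only the values in the other genotypes are free of it, and the part of the rapid stress pattern in the 9 genes was not tested. Over all 22 genes, wild type replicate 2 was the highest wild type library in 14.

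**Figure D3:**
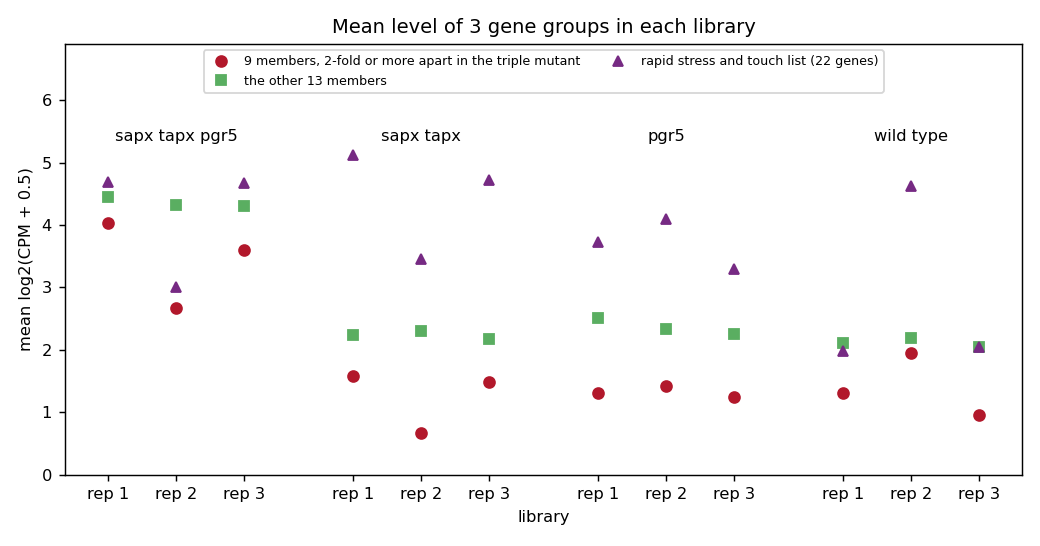
Mean log2(CPM + 0.5) in each library of the 9 genes that were 2-fold or more apart within the triple mutant, of the other 13 genes, and of the 22 genes of the rapid stress and touch list. The 9 genes and the rapid stress list dip together in replicate 2 of the triple mutant and of sapx tapx and peak together in replicate 2 of wild type. The mean of the 13 genes stays level within genotypes, although single genes among them vary. The split into 9 and 13 genes used the triple mutant libraries, so the spread there follows from it. WRKY25 is both among the 9 genes and in the rapid stress list.

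Reads from introns, which the rule did not use, were counted in the same libraries. The genes were chosen on exon reads of the same RNA, so higher intron reads in the triple mutant are no independent support. Reads in introns of the 22 genes numbered 37, 43 and 60 in the triple mutant, 12, 9 and 15 in sapx tapx, 10, 32 and 14 in pgr5, and 5, 20 and 6 in wild type. Per 1000000 gene reads this was 6.27, 6.32 and 8.68 in the triple mutant, 1.85, 1.81 and 2.23 in sapx tapx, 1.68, 4.76 and 2.24 in pgr5, and 0.842, 3.56 and 0.968 in wild type. Every triple mutant library lay above the other 9, although pgr5 replicate 2 and wild type replicate 2 came closest. Over all genes, introns held 1.09 to 1.33% of gene reads in the triple mutant libraries and 1.16 to 1.57% in the other 9. The intron reads of the 22 genes came from 15 genes, and intron reads may include reads from retained introns. Without a strand mark, reads of overlapping genes on the other strand cannot be told apart, and 2 of the 22 genes overlap a neighbour on the opposite strand.

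The 22 genes were spread over all 5 nuclear chromosomes, with 3, 6, 8, 2 and 3 genes on chromosomes 1 to 5. Their exon length had a median of 1420 bases, against 1615 bases in all 16350 genes tested, and 5 of 22 (22.7%) had a single exon, against 12.3% of the genes tested. Of each gene's exon reads at least 99.8% were unique, so near copies such as GSTF6 and GSTF7 shared few reads.

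In the fit over all genes, a gene was called at an adjusted p under 0.05 in edgeR's quasi-likelihood test with Benjamini-Hochberg adjustment. Against wild type 21 of the 22 genes were called higher in the triple mutant, where 6.21% of all genes tested were called higher. Against sapx tapx it was 20 of 22, with 4.78% of all genes, and against pgr5 18 of 22, with 1.35% of all genes. In the interaction, which asks whether pgr5 changes a gene more in the sapx tapx background than in the wild type background, it was 2 of 22, AT4G01870 and AT2G17500, with 0.128% of all genes. In the 4 comparisons in that order, 4.09%, 3.13%, 0.196% and 0.0122% of all genes were called lower, and 10.3%, 7.91%, 1.54% and 0.141% in either direction. Same-numbered libraries of the triple mutant and sapx tapx, and of pgr5 and wild type, deviated together from their genotype means. The labels give no pairing, and some libraries of different numbers deviated together too. An alternative chosen after seeing the data took the number as a block within the triple mutant and sapx tapx and within pgr5 and wild type. With it, 22 of the 22 were called higher against sapx tapx (8.56% of all genes) and 10 of 22 in the interaction (0.728% of all genes). Without the 3 libraries that stood apart in the rapid stress list, the interaction was called higher in 8 of the 22, and over all genes in 107 higher and 218 lower. Leaving out 1 library could lower the counts. Against wild type it was 16 without wild type replicate 3 (576 of 16572 genes). Against sapx tapx it was 17 without sapx tapx replicate 3 (479 of 16549 genes). Against pgr5 it was 11 without pgr5 replicate 2 or 3 (106 of 16553 and 106 of 16564 genes). In the interaction it was 0 without pgr5 replicate 1 or 2 (12 of 16586 and 8 of 16553 genes). The rule used these contrasts, so nothing is read from the counts, and all 22 genes passed the filter on low counts.

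A further 46 genes met the conditions on level, ratio and single libraries but had a parent genotype at 1.5 times wild type or more, and they form the nearest comparison. In 45 of them this parent was pgr5, in 5 it was sapx tapx, and in 4 it was both. Their median ratio of triple mutant to wild type was 15.3, against 4.05 for the 22 genes, and their median ratio of pgr5 to wild type was 3.35, against 1.11. The difference in the second ratio is fixed by the rule. Of all 28642 genes, 29 are in a list of heat shock proteins and factors. The 46 genes hold 11 of these, which is 23.9% of the 46, while the 22 genes hold none. The list's summed level was 1669 to 2193 CPM in pgr5 and 672 to 904 in wild type, so the rule's limit on pgr5 bears on this difference. The 46 also hold 4 of 17 stress glycosyltransferases and 1 of 17 stress cytochromes P450. The 22 hold 2 of 33 glutathione transferases and 2 of 13 genes of reactive carbonyl removal and xenobiotic transport. They also hold 1 of the 17 stress cytochromes P450 and 1 of 22 rapid stress factors and touch genes. These are counts without a test.

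The motifs were searched in the same window of 28490 of the 28496 nuclear genes, on both strands. TGACG was in 9 of the 22 promoters (40.9%), in 15 of the 46 (32.6%) and in 25.3% of all 28490. TTGAC was in 14 of the 22 (63.6%), in 43.5% of the 46 and in 49.1% of all, and 2 or more copies were in 10 of the 22 (45.5%), in 10.9% of the 46 and in 16.3% of all. A TTGAC and a TGACG that share bases, as in AT5G25450 above, count for both. GAANNTTC was in 5 of the 22 (22.7%), in 21 of the 46 (45.7%) and in 12.1% of all, and 2 or more copies, as in HIR2 and ATERDJ3A, were in 9.09% of the 22, 15.2% of the 46 and 0.814% of all. The G box CACGTG was in 13.6%, 13.04% and 8.02%, the dehydration element core CCGAC in 18.18%, 19.6% and 16.7%, and the abscisic acid element core ACGTGNC, which can overlap the G box, in 13.6%, 13.04% and 10.99%, in that order of gene groups. The mitochondrial dysfunction motif was in 2 of the 22 (9.09%), SOT12 and AT4G15420, in 8.70% of the 46 and in 2.19% of all. Base composition was close, with a median GC content of 32.7% in the 22 windows and 33.7% in all windows. The shares are descriptions of these windows and were not tested.

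**Figure D4:**
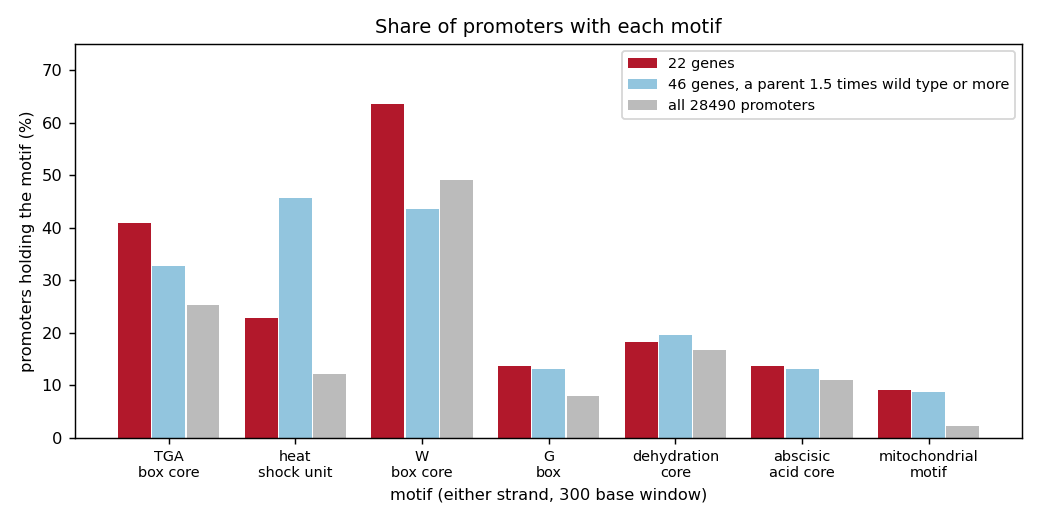
Share of promoter windows of 300 bases that hold each motif at least once on either strand, in percent, for the 22 genes, the 46 genes with a parent genotype at 1.5 times wild type or more, and the 28490 nuclear genes searched. The heat shock unit is in 22.7% of the 22 windows and 45.7% of the 46, and the W box core (TTGAC) in 63.6% and 43.5%.

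The families to which the members belong were followed in lists of members and other genes together. These lists were written from general knowledge, but with earlier results of these data known. The rule chose the members for being high in the triple mutant, so their own calls largely follow from it. The members also enter the medians. Of all genes tested, 6.21% were called higher against wild type, 4.78% against sapx tapx and 1.35% against pgr5. Of 33 glutathione transferases, 21 were tested, and 8 rose in the triple mutant against wild type, 2 of them among the 22 genes. The median log2 fold change of the 21 was 0.46, against 0.0063 for all genes tested. Also 8 rose against sapx tapx and 8 against pgr5, with the same 2 members in each count. Leaving out triple mutant replicate 1 gave 5 and 3, and leaving out sapx tapx replicate 3 gave 5 against sapx tapx. Leaving out pgr5 replicate 1, 2 or 3 gave 5, 3 and 3 against pgr5. GSTU19, an abundant tau class enzyme, averaged 880 ± 96.9 CPM in the triple mutant, 371 ± 45.4 in sapx tapx, 373 ± 21.8 in pgr5 and 344 ± 21.1 in wild type (SD, n = 3 each), a log2 fold change against wild type of 1.45 ± 0.11 (SE, edgeR adjusted p = 1.01e-05). GSTU1, another tau class enzyme, averaged 6.35 ± 0.496 CPM in the triple mutant, 2.95 ± 0.731 in sapx tapx, 2.57 ± 0.534 in pgr5 and 2.40 ± 0.728 in wild type. GSTF8, a phi class enzyme just outside the ratio of the rule, averaged 398 ± 91.4 CPM in the triple mutant, 131 ± 19.6 in sapx tapx, 168 ± 19.2 in pgr5 and 132 ± 5.76 in wild type, a log2 fold change against wild type of 1.68 ± 0.16 (edgeR adjusted p = 5.35e-05). GSTU19 and GSTF8 were already abundant in wild type, in contrast to GSTU24.

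Of 17 stress cytochromes P450, 11 were tested. Of these, 5 rose against wild type (6.21% of all genes did), 4 against sapx tapx (4.78%) and 3 against pgr5 (1.35%). Each count includes CYP81D11, whose calls largely follow from the rule. With 1 library left out these counts were 4 to 7, 4 to 5 and 2 to 4. Without the 3 libraries that stood apart in the rapid stress list they were 9, 5 and 7. Of all 16478 genes then tested, 1958, 959 and 866 were called higher. CYP72A8 averaged 77.8 ± 6.33 CPM in the triple mutant, 11.5 ± 0.645 in sapx tapx, 17.5 ± 2.81 in pgr5 and 9.04 ± 1.69 in wild type (SD, n = 3 each), a log2 fold change against wild type of 3.19 ± 0.16 (edgeR adjusted p = 4.18e-07). CYP81D8, a relative of CYP81D11 in the same subfamily, averaged 3.59 ± 0.887 CPM in the triple mutant, 0.565 ± 0.243 in sapx tapx, 0.479 ± 0.141 in pgr5 and 0.518 ± 0.193 in wild type. Its mean lay under the 5 CPM of the rule, and its log2 fold change against wild type was 2.85 ± 0.37 (edgeR adjusted p = 0.000619). Of 17 stress glycosyltransferases, 11 were tested, and 9 rose against wild type, 8 against sapx tapx and 4 against pgr5, with a median log2 fold change against wild type of 1.78. UGT74E2, which glucosylates the auxin indole-3-butyric acid, averaged 11.5 ± 4.33 CPM in the triple mutant, 0.238 ± 0.146 in sapx tapx, 1.76 ± 0.570 in pgr5 and 0.117 ± 0.102 in wild type. UGT74F2, which glucosylates salicylic acid, averaged 22.7 ± 7.81 CPM in the triple mutant, 0.224 ± 0.235 in sapx tapx, 2.77 ± 0.766 in pgr5 and 0.805 ± 0.279 in wild type, and in both genes the pgr5 level kept them out of the 22.

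Of 13 genes of reactive carbonyl removal and xenobiotic transport, 11 were tested. Of these, 5 rose against wild type (6.21% of all genes did), 6 against sapx tapx (4.78%) and 4 against pgr5 (1.35%). Each count includes AKR4C8 and AKR4C9, whose calls largely follow from the rule. The median log2 fold change of the 11 genes against wild type, these members included, was 0.97. AER, an alkenal reductase, averaged 259 ± 27.3 CPM in the triple mutant, 95.2 ± 11.9 in sapx tapx, 152 ± 7.50 in pgr5 and 90.3 ± 9.78 in wild type (SD, n = 3 each), a log2 fold change against wild type of 1.61 ± 0.12 (edgeR adjusted p = 8.02e-06). ALDH7B4, an aldehyde dehydrogenase, averaged 87.1 ± 6.81 CPM in the triple mutant, 44.7 ± 5.21 in sapx tapx, 45.6 ± 10.3 in pgr5 and 45.99 ± 4.50 in wild type, a log2 fold change against wild type of 1.01 ± 0.16 (edgeR adjusted p = 0.00179). Its levels in the other 3 genotypes were as close to each other as in the 22 genes, but the triple mutant was short of the ratio of 2.5.

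The remaining lists set the scale. Against wild type 6.21% of all genes tested were called higher. Of 25 tested heat shock proteins and factors, 18 rose against wild type, with a median log2 fold change of 2.76. Of 27 tested antioxidant enzymes, 10 rose, with a median of 0.21, and APX1, the cytosolic ascorbate peroxidase, rose by 1.35 ± 0.17 on the log2 scale (SE, edgeR adjusted p = 0.00043). Of 22 tested rapid stress factors and touch genes, 3 rose, WRKY25 among them, but without the 3 libraries that stood apart 20 did, and without wild type replicate 2 alone 13 did. Without triple mutant replicate 1 or 3, sapx tapx replicate 3, any pgr5 library, or wild type replicate 1 or 3, only 1 did. Of 9 tested genes of mitochondrial retrograde signalling, 3 rose, including AOX1A, the alternative oxidase, by 0.87 ± 0.10 on the log2 scale (edgeR adjusted p = 0.00033). Of 9 tested genes of endoplasmic reticulum stress, the list closest to ATERDJ3A, 6 fell against wild type, where 4.09% of all genes were called lower, with a median log2 fold change of -0.44. Without triple mutant replicate 1 or 3 the count was 1 and 2, and without wild type replicate 1 or 3 it was 2 and 1.

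Markers of leaf mesophyll were abundant in every library, at a summed 63980 to 66690 CPM in the triple mutant, 63070 to 65400 in sapx tapx, 62810 to 64080 in pgr5 and 55780 to 65020 in wild type. The sum of 4 phloem markers moved with the genotypes, at 587 to 676 CPM in the triple mutant, 445 to 479 in sapx tapx, 613 to 682 in pgr5 and 443 to 514 in wild type. Single markers differed. Against wild type 2 of the 4 rose (6.21% of all genes did), and 1 or 2 with 1 library left out. Against sapx tapx 1 rose (4.78%), and against pgr5 0 (1.35%). Of these, SUC2, the sucrose loader of the phloem, averaged 191 ± 20.9 CPM in the triple mutant, 86.3 ± 4.38 in sapx tapx, 186 ± 15.2 in pgr5 and 83.9 ± 9.18 in wild type (SD, n = 3 each), a log2 fold change of the triple mutant against wild type of 1.28 ± 0.11 (edgeR adjusted p = 2.09e-05). Of 3 tested trichome markers 1 fell, GL2, at 0.156 ± 0.149 CPM in the triple mutant, 2.85 ± 0.890 in sapx tapx, 0.433 ± 0.114 in pgr5 and 4.88 ± 1.16 in wild type. Summed seed maturation markers reached at most 0.586 CPM in the triple mutant and 2.29 in wild type. In leaf RNA, fewer cells of a type and less RNA per cell cannot be told apart, and the part of these markers in the levels of the 22 genes was not tested.

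The genes next to the 22 on the chromosome numbered 42, of which 27 were tested. Against wild type 5 of the 27 rose in the triple mutant (6.21% of all genes tested did). Against sapx tapx 6 rose and 2 fell (4.78% and 3.13% of all genes). Against pgr5 only GSTF7, the neighbour of GSTF6, rose (1.35% of all genes). The 5, named after their values were seen, were UGT85A3 and UGT88A1, which are glycosyltransferases, AT3G03990, AT5G25440 and ETFBETA. UGT85A3, next to UGT85A1, averaged 1.70 ± 0.0604 CPM in the triple mutant, 0.492 ± 0.461 in sapx tapx, 0.588 ± 0.0717 in pgr5 and 0.337 ± 0.155 in wild type (SD, n = 3 each), a log2 fold change against wild type of 2.34 ± 0.50 (edgeR adjusted p = 0.0127). GSTF7 averaged 6.38 ± 3.38 CPM in the triple mutant, 1.18 ± 0.555 in sapx tapx, 1.09 ± 0.678 in pgr5 and 2.55 ± 1.66 in wild type, with edgeR adjusted p = 0.0447 against pgr5. GSTU25, next to GSTU24 in a tau class cluster, had 3 reads in the triple mutant and 0 in wild type, and was not tested. The neighbours that overlap a member on the opposite strand, HMG beside CYP81D11 by 32 bases and EMB2763 beside AT2G17500 by 43 bases, had log2 fold changes against wild type of -0.07 and -0.04.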

How the data were processed

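The authors deposited 1 table per library. Per the file headers, it holds raw counts of exon reads (total and unique), junction reads, intron reads and whole-gene reads for each gene, and RPKM values. The deposited RPKM values, which scale reads by exon length and depth, were used for levels per length and in no test. Libraries were made with a kit that does not mark the strand, per the labels' protocols, and reads were placed on TAIR10, per the submitters' processing notes. The aligner and counter were not given in the sources used here.

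Total exon reads were divided by the library sum to give CPM. Counts over all 12 libraries were fitted in edgeR 4.0.16 (R 4.3.3) with TMM scaling, filterByExpr as the filter on low counts, a quasi-likelihood test and Benjamini-Hochberg adjustment over the 16350 genes that passed, and DESeq2 1.42.0 was an alternative. The fit was first tested on simulated counts. Errors are SD over 3 libraries, SE for log2 fold changes, and exact intervals for ratios of reads where a genotype had 1 to 3 reads. Such intervals and floors cover counting error alone, as reads were not marked by molecule and are not independent molecules. The labels list replicates as samples of their own without saying that they came from separate plants, so a p-value reflects only the spread between these samples, which may be technical. No pair of replicates agreed within sampling noise (chi-square of 3.73 to 12.5 per degree of freedom).

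The 22 genes, the gene lists and the tests were chosen with earlier results of these data known. Every gene of the set is named. From each list, the text names genes from among the up to 4 that are no members and have the largest changes against wild type past the test, not always the first of them, and defining markers, and exceptions are marked as chosen after their values were seen. Same-numbered libraries deviated together from their genotype means in 3 of 3 pairs of the triple mutant with sapx tapx (correlations of 0.507 to 0.702) and in 3 of 3 of pgr5 with wild type (0.230 to 0.527), which the labels do not mention, and not between other genotypes (-0.725 to 0.158). Libraries of different numbers also deviated together, such as triple mutant replicate 1 and wild type replicate 2 (correlation of 0.602). Of the 12 libraries, 7 had their best match in a library of their own number. Whether the numbers mark a pairing was not tested, and the main fit had no block. Of 359 list members written, 17 were dropped because their locus and symbol did not match the reference table. Promoter windows came from the RefSeq genome TAIR10.1, in which 27997 of the 28009 nuclear genes with a reference row overlap the same locus as in the deposited tables. Coordinates of genes are those of the deposited tables on TAIR10. Symbols came from the reference table, which named 28009 of 28642 genes.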

Additional observations from a re-analysis of the deposited data

Results flagged for a closer look

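Among the list genes followed beside the 22 genes, 5 changed more with pgr5 in the sapx tapx background than in the wild type background, by the interaction term of the edgeR fit over all genes. CYP72A8 had an interaction of 1.78 ± 0.22 on the log2 scale (SE, edgeR adjusted p = 0.00993), and it passed without each library in turn. GSTU19 had an interaction of 1.10 ± 0.15 (edgeR adjusted p = 0.0138), with edgeR adjusted p = 0.0604 without pgr5 replicate 2 and 0.0513 without pgr5 replicate 3. UGT75B1, a glycosyltransferase named here after its values were seen, averaged 96.2 ± 3.17 CPM in the triple mutant, 19.2 ± 2.85 in sapx tapx, 37.0 ± 2.46 in pgr5 and 18.1 ± 2.82 in wild type (SD, n = 3 each). Its interaction was 1.27 ± 0.18 (edgeR adjusted p = 0.0167), but it shares reads with a near copy, since 23.0% of its exon reads were unique, and on unique reads the adjusted p was 0.129. It also missed the threshold without triple mutant replicate 3 (edgeR adjusted p = 0.0509), pgr5 replicate 1 (0.0707) or pgr5 replicate 2 (0.0604). HSP90.1, a cytosolic chaperone of the heat response, averaged 724 ± 110 CPM in the triple mutant, 16.8 ± 2.79 in sapx tapx, 173 ± 34.7 in pgr5 and 19.6 ± 8.72 in wild type, with an interaction of 2.26 ± 0.37 (edgeR adjusted p = 0.0462). BAG6, a heat-induced co-chaperone also named after its values were seen, averaged 71.9 ± 28.4 CPM in the triple mutant, 4.22 ± 1.14 in sapx tapx, 10.2 ± 2.29 in pgr5 and 5.38 ± 1.92 in wild type, with an interaction of 3.14 ± 0.52 (edgeR adjusted p = 0.0481). Both kept the call only without triple mutant replicate 2 or wild type replicate 2, and without any other library, 10 in all, the adjusted p was 0.0623 to 0.165 for HSP90.1 and 0.0797 to 0.175 for BAG6. With the replicate block within the triple mutant and sapx tapx and within pgr5 and wild type, all 5 passed, with edgeR adjusted p of 0.000530 (GSTU19) to 0.00734 (CYP72A8). The lists held 270 tested entries, members of the 22 included. The percentage of all genes tested with a higher interaction was 0.128. AT1G07400, written into the heat shock list as HSP17.8, was dropped because symbol and locus did not match. Its interaction was 2.45 ± 0.37 (edgeR adjusted p = 0.01965).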

How the results depend on the processing

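The set of 22 genes depended on its limits. It held 39 genes at a ratio of 2, 7 at a ratio of 4, 7 at a level of 20 CPM, 35 with parents under 2 times wild type, and 39 without the condition on single libraries. Leaving out 1 library at a time gave 16 to 55 genes, the highest without triple mutant replicate 2, which kept 21 of the 22. Without wild type replicate 2, 8 of the 22 left the set (AKR4C9, AT3G16530, AT3G60420, AT5G43420, ATERDJ3A, CYP81D11, HIR2 and WRKY25). Without the 3 libraries that stood apart, 8 left it (AKR4C9, AT3G60420, AT4G01870, AT5G43420, ATERDJ3A, CYP81D11, HIR2 and WRKY25). AKR4C9 also left it with TMM scaling or DESeq2 size factors, and AKR4C9, AT5G25450 and GSTU24 left it with 0.1 added in place of 0.5. The triple mutant differed from wild type in 1685 genes, with 865 to 1853 when 1 library was left out and 2989 without the 3 libraries that stood apart, an alternative chosen after seeing the data. Against sapx tapx there were 1293 genes (746 to 1523 with 1 library left out), 1536 with the replicate block and 2587 with a replicate block within the triple mutant and sapx tapx and within pgr5 and wild type, also chosen after seeing the data. Against pgr5 there were 252 genes (112 to 341 with 1 library left out, and 1091 without the 3 libraries), and the replicate block gave 416. The interaction was called in 23 genes (10 to 61 with 1 library left out), in 325 without the 3 libraries, in 100 with DESeq2, in 50 with the replicate block and in 171 with the block within pairs. The prevailing direction of the interaction calls depended on the libraries. In all libraries 91.3% were higher, in DESeq2 77.0%, with the replicate block 40 of 50, with the block within pairs 69.6% (119 of 171) and without wild type replicate 2 62.3% (38 of 61), but without the 3 libraries 32.9% (107 of 325), so that most were lower. The cause was not tested. The block within pairs gives no value against wild type or pgr5, and the block over all 4 genotypes also joins triple mutant and wild type libraries, whose deviations ran opposite. No named list gene past the test and no ratio of a member to the highest other genotype changed sign under the alternatives run. Wherever a fit was left with a pair of libraries in a genotype, its spread was pooled over genotypes.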
